A study of Mus musculus with 40 samples.

Results

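The skeletal myosin heavy chains were followed in 2 leg muscles of mice as 7 genes, *Myh7* (Entrez ID 140781), *Myh2* (17882), *Myh1* (17879), *Myh4* (17884), *Myh3* (17883), *Myh8* (17885) and *Myh7b* (668940). They were chosen by symbol as the type I, IIa, IIx, IIb, embryonic, perinatal and *Myh7b* chains, and all 7 had a probe set among the 16475 on the arrays that remained without controls. Of these 7, 4 had a mean signal intensity over 20 across the arrays, as had 6479 of the 16475 probe sets. From each of 20 male mice, gastrocnemius and quadriceps RNA went onto an array of its own, 40 arrays in all. For 8 weeks, 10 mice ate a low fat diet (LFD, with 10 kcal% from fat) and the other 10 a high fat diet (HFD, with 45 kcal% from fat), after a low fat run-in of 3 weeks that all mice shared and that began at an age of 9 weeks. At dissection all animals were 20 weeks old and had fasted for 6 hours. The strain was C57BL/6J, which the sample labels spell C56BL/6J. The labelled muscle came from the title and the tissue entry of each array, since the extraction text of the labels names only the quadriceps.

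A myosin heavy chain is the motor of the thick filament, and the isoform a fiber contains largely sets how fast it shortens. Type I fibers use *Myh7*, which is also the beta chain of the heart, and are slow and oxidative; *Myh2* marks the fast oxidative type IIa fiber, *Myh1* the type IIx fiber and *Myh4* the fast glycolytic type IIb fiber. *Myh3* and *Myh8* are used before and around birth and again in regenerating fibers, and *Myh7b* is found in extraocular muscle and muscle spindles.

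The genes lie in 3 places. *Myh3*, *Myh2*, *Myh1*, *Myh4* and *Myh8* follow each other in this order on chromosome 11, with the noncoding gene *Myhas* between *Myh1* and *Myh4*, whereas *Myh7* is on chromosome 14 and *Myh7b* on chromosome 2. Their start regions are shown because the adult fast isoforms, which differed in how they varied between muscles and mice, share stretches of sequence there that the slow isoform does not have. The windows come from RefSeq (GRCm38.p6) and run from 250 bases before to 50 bases after the gene start, which is base 1, on the strand of the gene. They are chr11:67170777-67171076 for *Myh2*, chr11:67199852-67200151 for *Myh1*, chr11:67237562-67237861 for *Myh4* and chr11:67276874-67277173 for *Myh8*, all on the plus strand, and chr14:54994500-54994799 on the minus strand for *Myh7*, for which the table holds 2 windows and the one reaching farthest downstream was taken. Capitals mark TTCTAATTATATCC, TCAAATTATTTATAG and TATAAA where they are read on the strand shown.
Myh2: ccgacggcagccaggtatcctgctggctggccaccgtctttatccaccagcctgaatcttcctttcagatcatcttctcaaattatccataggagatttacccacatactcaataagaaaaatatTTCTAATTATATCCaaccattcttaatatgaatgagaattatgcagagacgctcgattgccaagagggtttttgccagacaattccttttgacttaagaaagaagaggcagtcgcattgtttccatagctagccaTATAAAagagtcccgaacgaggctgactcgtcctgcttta
Myh1: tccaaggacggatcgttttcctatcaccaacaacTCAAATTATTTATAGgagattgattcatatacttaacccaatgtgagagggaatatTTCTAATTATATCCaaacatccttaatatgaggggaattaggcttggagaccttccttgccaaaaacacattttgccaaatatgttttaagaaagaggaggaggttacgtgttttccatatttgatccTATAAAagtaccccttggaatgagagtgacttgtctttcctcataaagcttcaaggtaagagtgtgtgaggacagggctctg
Myh4: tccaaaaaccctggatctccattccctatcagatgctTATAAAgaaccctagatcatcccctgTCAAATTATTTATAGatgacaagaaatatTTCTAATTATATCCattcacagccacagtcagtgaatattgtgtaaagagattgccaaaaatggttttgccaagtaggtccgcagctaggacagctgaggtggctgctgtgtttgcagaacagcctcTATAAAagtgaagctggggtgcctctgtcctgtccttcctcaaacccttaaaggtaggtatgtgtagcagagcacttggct
Myh8: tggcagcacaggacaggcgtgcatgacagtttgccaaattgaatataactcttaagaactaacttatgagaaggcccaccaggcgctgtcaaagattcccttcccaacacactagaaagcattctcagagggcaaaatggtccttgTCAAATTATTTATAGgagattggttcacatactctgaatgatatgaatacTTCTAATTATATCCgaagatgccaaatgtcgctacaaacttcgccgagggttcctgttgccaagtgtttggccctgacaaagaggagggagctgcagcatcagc
Myh7: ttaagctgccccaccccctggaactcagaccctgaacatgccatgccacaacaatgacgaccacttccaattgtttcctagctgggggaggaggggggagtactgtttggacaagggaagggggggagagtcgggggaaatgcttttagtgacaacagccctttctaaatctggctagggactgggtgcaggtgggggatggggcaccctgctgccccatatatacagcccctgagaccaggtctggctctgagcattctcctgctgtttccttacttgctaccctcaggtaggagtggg
The run of 14 bases TTCTAATTATATCC was picked as the longest that the windows of *Myh2*, *Myh1*, *Myh4* and *Myh8* share. With both strands searched, it was in no other of 32817 promoter windows (0.0122%). It starts at base -125 in *Myh2*, -160 in *Myh1*, -158 in *Myh4* and -54 in *Myh8*. The run of 15 bases TCAAATTATTTATAG was likewise picked as the longest shared by *Myh1*, *Myh4* and *Myh8*, and no other window held it (0.00914% of windows). In these 3 windows it overlaps a match to the MEF2 motif on the other strand, a motif found in 1.86% of windows and not in those of *Myh2* or *Myh7*. TATAAA, present on either strand in 13.6% of windows, lies at -32 in *Myh1* and -31 in *Myh4* on the gene's strand, at 11 in *Myh2*, and was absent from the *Myh7* window. The E-box CANNTG (72.3% of windows) occurred at 2 positions in *Myh7*, 3 in *Myh4* and none in *Myh2* or *Myh1*. TATAAA was also read at -213 in *Myh4*. These are matches of letters only.

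*Myh7* and *Myh7b* each also carry a microRNA within the gene, and the mature forms are shown because their seeds, bases 2 to 8 in capitals, begin with the same 6 bases. The sequences are from RefSeq (GRCm38.p6), with miR-208b-3p at chr14:54975710-54975731 on the minus strand and miR-499-5p at chr2:155622893-155622913 on the plus strand.
mmu-miR-208b-3p: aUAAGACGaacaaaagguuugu
mmu-miR-499-5p: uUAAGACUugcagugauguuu
Neither microRNA was measured here.

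The 40 arrays were alike in overall signal, with array medians of 8.8 to 9.4 and correlations of log2 signal between arrays of 0.985 to 0.9966, and no 2 arrays were identical. All 7 fiber markers examined were over the filter, with a summed signal of 78856 to 94674 over the arrays. Values below are linear signal intensities, and a fold change divides one geometric mean by the other. Gastrocnemius and quadriceps were compared within a diet with limma, and a gene was called at a Benjamini-Hochberg FDR under 0.05 together with a fold change over 1.3. Of the 6479 probe sets tested, 163 (2.52%) were called in LFD mice and 224 (3.46%) in HFD mice. Of the 4 isoforms tested, 2 were called in each diet, *Myh7* and *Myh2*, both higher in the gastrocnemius, a direction in which 1.42% of all tested probe sets were called in LFD mice and 1.91% in HFD mice.

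**Figure D1:**
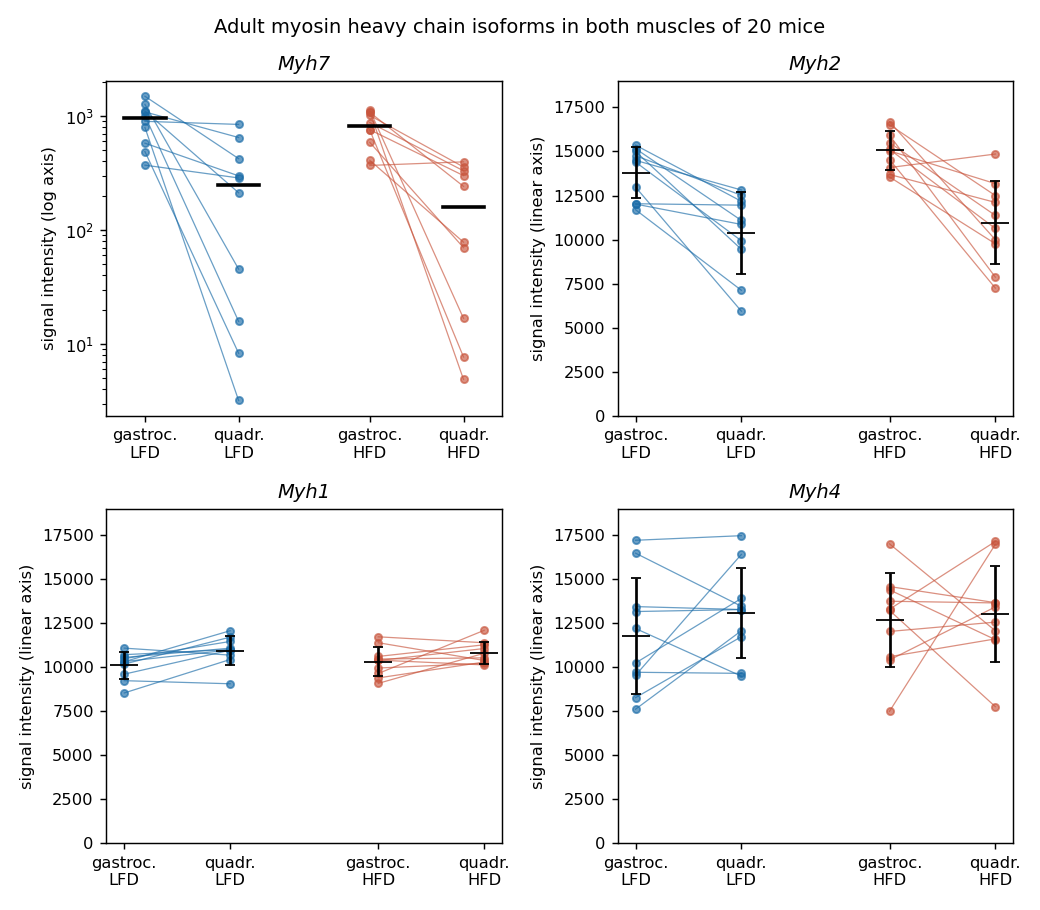
Signal intensity of the 4 adult isoforms in each of the 40 arrays, with a line joining the muscles of a mouse, on a log axis for *Myh7* and a linear axis from 0 for the others. Black marks are the median for *Myh7* and the mean with its SD for the others (10 mice per group); *Myh7* in the quadriceps runs from 3.2 to 842.6 in LFD mice, and *Myh1* lies in a narrow band in all 4 groups.

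The slow isoform *Myh7* had its higher level in the gastrocnemius under both diets. In LFD mice its signal had a lowest value of 370.0, a median of 951 and a highest value of 1487.7 in the gastrocnemius, and 3.2, 249 and 842.6 in the quadriceps. In HFD mice these values were 368.1, 816 and 1121.3 in the gastrocnemius and 4.9, 160 and 395.8 in the quadriceps. The ranges overlapped in each diet, but 6 of 10 gastrocnemius arrays of LFD mice and 9 of 10 of HFD mice were above every quadriceps array of that diet. Within a mouse, the gastrocnemius was higher in 10 of 10 LFD mice and 9 of 10 HFD mice. Over all tested probe sets, 2.72% were higher in that muscle in 10 of 10 LFD mice. The exception was HFD mouse 145, with 368.1 in the gastrocnemius and 395.8 in the quadriceps. On the log2 scale the difference was 3.10 ± 0.85 (SE, n = 10 mice) in LFD mice, an 8.56-fold ratio with a 95% interval of 1.32 to 4.87 in log2 units and an adjusted p of 0.0361 (limma). In HFD mice it was 3.22 ± 0.73 (SE), a 9.32-fold ratio with an interval of 1.70 to 4.74 and an adjusted p of 0.0081 (limma). As a ratio of arithmetic means, in which the lowest arrays weigh less, *Myh7* was 3.26-fold higher in LFD and 4.46-fold higher in HFD mice. In tissue RNA, fewer type I fibers and less *Myh7* RNA per fiber cannot be told apart.

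The call in LFD mice lay close to the threshold. *Myh7* was no longer called when mouse 142, 147, 148, 154, 155, 156 or 159 was left out, with log2 differences of 2.56 to 3.34 and adjusted p-values of 0.0516 to 0.104 (limma). In HFD mice it stayed called when each mouse was left out in turn (adjusted p 0.00592 to 0.0305, limma).

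The signal of *Myh7* in the quadriceps reached from the background of the arrays up to 842.6. The SD of its log2 signal was 2.85 there in LFD mice and 2.43 in HFD mice, against 0.64 and 0.59 in the gastrocnemius. The quadriceps SDs include values near the background, whose log2 size is uncertain. In the quadriceps *Myh7* was at or under 20 in 3 of 10 LFD mice (142, 147 and 156) and in 3 of 10 HFD mice (143, 151 and 158), and on 4 arrays it was below the array median. The gastrocnemius of the same LFD mice held signals of 793.6, 1005.8 and 487.5, and that of the same HFD mice 1091.0, 750.6 and 1121.3. Counted from the lowest of the 10 gastrocnemius arrays of LFD mice, mice 142, 147 and 156 ranked 4, 6 and 2. Among the 10 of HFD mice, mice 143, 151 and 158 ranked 9, 4 and 10. Whether the spread differed between the muscles was not tested.

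*Myh2*, the heavy chain of fast oxidative type IIa fibers, was also higher in the gastrocnemius. In LFD mice its signal was 11695, 14449 and 15362 (lowest, median and highest) in the gastrocnemius and 5934.5, 10973 and 12814.5 in the quadriceps. HFD mice had 13553, 15077 and 16693.6 in the gastrocnemius and 7245.5, 11000 and 14855.3 in the quadriceps. The ranges overlapped in both diets, and 6 of 10 quadriceps arrays of LFD mice and 9 of 10 of HFD mice were below every gastrocnemius array of that diet. *Myh2* was higher in the gastrocnemius of 10 of 10 LFD mice and of 9 of 10 HFD mice, and mouse 145 was again the exception. The log2 difference was 0.44 ± 0.12 (SE, n = 10 mice) in LFD mice, or 1.36-fold, with an interval of 0.19 to 0.69 and an adjusted p of 0.0345 (limma). In HFD mice it was 0.49 ± 0.10 (SE), or 1.40-fold, with an interval of 0.27 to 0.70 and an adjusted p of 0.0044 (limma). The fold change lay close to the threshold of 1.3, and in LFD mice the call was lost without mouse 142, 147, 148, 154, 155, 156 or 160, with log2 differences of 0.36 to 0.47 and adjusted p-values of 0.0402 to 0.0973 (limma). Without mouse 142 the adjusted p of 0.0402 stayed under the threshold but the fold change did not pass its own. In HFD mice no mouse decided the call.

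*Myh1*, the heavy chain of type IIx fibers, was the most even of the 4 across groups. Its signal was 8542.8, 10321 and 11086 in the gastrocnemius and 9063.1, 10997 and 12074 in the quadriceps of LFD mice. HFD mice had 9086.2, 10395 and 11729 in the gastrocnemius and 10134, 10665 and 12096 in the quadriceps. All 4 ranges overlapped, and the coefficient of variation between mice was 5.84% to 8.06%. *Myh1* was lower in the gastrocnemius in 8 of 10 LFD mice and 7 of 10 HFD mice. The log2 difference was -0.12 ± 0.05 (SE, interval -0.23 to -0.0039, adjusted p = 0.241, limma) in LFD mice. HFD mice showed a difference of -0.07 ± 0.05 (SE, interval -0.18 to 0.03, adjusted p = 0.509, limma). Neither was called.

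*Myh4*, the heavy chain of fast glycolytic type IIb fibers, varied more between mice than between muscles. Its signal was 7618.5, 11221 and 17209 in the gastrocnemius and 9494.4, 13277 and 17470 in the quadriceps of LFD mice. HFD mice had 7500.0, 13262 and 17006 in the gastrocnemius and 7762.9, 12994 and 17141 in the quadriceps. The muscles overlapped over nearly the whole range, with a lower gastrocnemius in 6 of 10 LFD mice and 5 of 10 HFD mice. The log2 difference was -0.17 ± 0.15 (SE, interval -0.48 to 0.13, adjusted p = 0.588, limma) in LFD mice. In HFD mice it was -0.04 ± 0.14 (SE, interval -0.33 to 0.25, adjusted p = 0.935, limma), and mouse 157, with 7500.0 in the gastrocnemius and 16980 in the quadriceps, decided its sign, since the difference was 0.08 without it.

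The order of the group means set these isoforms apart. For *Myh7* it ran from the gastrocnemius of LFD mice (907 ± 354, SD, n = 10) and of HFD mice (804 ± 279) to the quadriceps of LFD mice (278 ± 289) and of HFD mice (180 ± 159). Only the step from gastrocnemius to quadriceps was larger than the SD of the groups beside it. For *Myh2* the order was gastrocnemius HFD (15067 ± 1109, SD, n = 10), gastrocnemius LFD (13791 ± 1450), quadriceps HFD (10950 ± 2352) and quadriceps LFD (10383 ± 2318), and again the step between the muscles was the only one beyond the SD. For *Myh1* and *Myh4* the quadriceps means were above the gastrocnemius means, and no neighbours in the order differed beyond their spread.

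**Figure D2:**
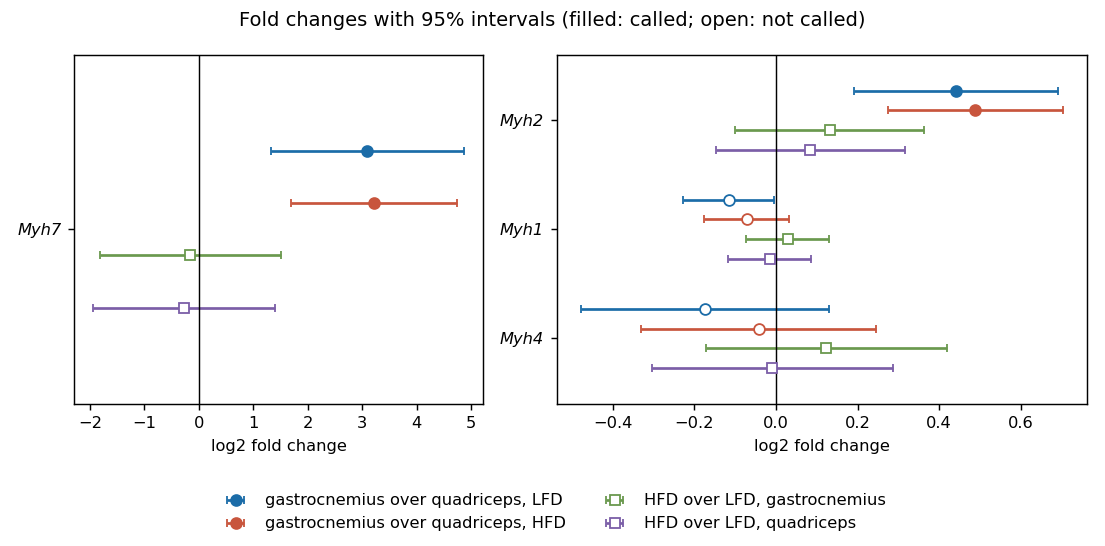
Log2 fold changes with 95% intervals from limma for *Myh7* (left) and for *Myh2*, *Myh1* and *Myh4* (right, on a narrower axis); circles are gastrocnemius over quadriceps, squares are HFD over LFD, and filled symbols were called. The muscle differences of *Myh7* (3.10 and 3.22) and *Myh2* (0.44 and 0.49) are the filled symbols, and all intervals of the diet effects include 0.

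The developmental isoforms and *Myh7b* were at or under 20 on all 40 arrays. *Myh3*, the embryonic chain, had signals of 7.1, 10.1 and 19.3 in the gastrocnemius and 6.6, 8.65 and 9.9 in the quadriceps of LFD mice (lowest, median and highest), and 8.2, 10.4 and 15.2 against 6.7, 8.2 and 10.8 in HFD mice. The muscles overlapped, and the gastrocnemius was higher in 7 of 10 LFD mice and 8 of 10 HFD mice. In a fit over all 16475 probe sets, in which 1.38% were called in LFD and 1.87% in HFD mice, the log2 difference of *Myh3* was 0.34 ± 0.15 (SE, adjusted p = 0.285, limma) and 0.36 ± 0.10 (SE, adjusted p = 0.0503, limma), and neither was called. *Myh8*, the perinatal chain, ranged from 4.9 to 13.7 over all arrays, and *Myh7b* from 4.0 to 6.1. *Myh8* differed by -0.02 (adjusted p = 0.957, limma) and 0.25 (adjusted p = 0.376, limma) on the log2 scale between the muscles, and *Myh7b* by 0.12 (adjusted p = 0.465, limma) and 0.11 (adjusted p = 0.604, limma). *Myh3* was below the array median on 19 of 40 arrays, *Myh8* on 32 and *Myh7b* on all 40, so that these probe sets gave values near the background of the arrays.

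**Figure D3:**
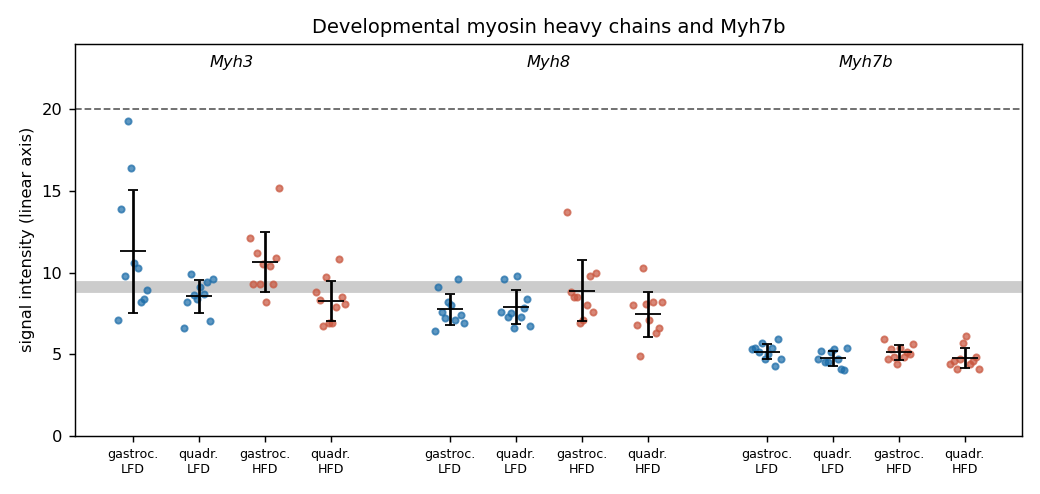
Signal intensity (linear axis from 0) of *Myh3*, *Myh8* and *Myh7b* in each array by group, with the mean and SD in black; blue points are LFD mice and red points HFD mice. The grey band is the range of the array medians (8.8 to 9.4) and the dashed line the filter of 20, which no point passes; the highest point is *Myh3* at 19.3.

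No isoform was called for an effect of diet, and 0 of 7 had an unadjusted p under 0.05 (limma) in either muscle. Of these 7, *Myh3*, *Myh8* and *Myh7b* were taken from the fit over all probe sets. Over the 6479 probe sets tested, 9.0% had such a p in the gastrocnemius and 5.7% in the quadriceps. With 7 genes, a count of 0 is not read as lower than these shares. In the gastrocnemius, where 14 of 6479 probe sets (0.216%) were called between the diets, the log2 change of HFD over LFD was -0.15 for *Myh7* (interval -1.82 to 1.52, adjusted p = 0.986, limma) and 0.13 for *Myh2* (interval -0.10 to 0.36, adjusted p = 0.866, limma). It was 0.03 for *Myh1* (interval -0.07 to 0.13) and 0.12 for *Myh4* (interval -0.17 to 0.42). In the quadriceps, where 4 probe sets (0.0617%) were called, the change was -0.28 for *Myh7* (interval -1.94 to 1.39, adjusted p = 0.998, limma) and 0.08 for *Myh2* (interval -0.15 to 0.32, adjusted p = 0.998, limma). It was -0.02 for *Myh1* (interval -0.12 to 0.09) and -0.01 for *Myh4* (interval -0.30 to 0.29). The intervals, as fitted, bound a change of *Myh1* within 0.13 log2 units in either muscle. For *Myh7* they reach beyond 1 log2 unit in both directions. All diet tests and intervals used a spread shared by the 4 groups. In the gastrocnemius the SD of log2 signal (LFD, HFD) was 0.64 and 0.59 for *Myh7* and 0.16 and 0.11 for *Myh2*. In the quadriceps it was 2.85 and 2.43 for *Myh7* and 0.37 and 0.32 for *Myh2*. The gastrocnemius intervals of both isoforms thus carry the larger spread of the quadriceps. A diet test on the gastrocnemius alone was not run.

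The interaction asked whether the muscle difference depended on the diet, and none of the 6479 probe sets was called (0%), with 118 at an unadjusted p under 0.05 (limma). The log2 fold change of gastrocnemius over quadriceps in HFD mice minus that in LFD mice was 0.12 for *Myh7* (interval -2.24 to 2.48, unadjusted p = 0.917, limma), 0.05 for *Myh2* (interval -0.28 to 0.38, unadjusted p = 0.77, limma), 0.04 for *Myh1* (interval -0.10 to 0.19) and 0.13 for *Myh4* (interval -0.29 to 0.55). For *Myh1* and *Myh4*, whose fold changes were negative in both diets, the estimated difference between the muscles was thus the smaller in HFD mice. Neither interaction was called, and both intervals include 0. *Myh8* had an unadjusted p of 0.0773 (limma, all probe sets) for a difference of 0.27, and its adjusted p was 1. Thus 0 of the 7 isoforms had an unadjusted p under 0.05.

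The isoforms were then compared between mice, as deviations of log2 signal from the diet mean over 20 mice, in 16 relations with permutation tests (100000 permutations within diet, two-sided). Of the 16, 3 passed an adjusted p of 0.05. In the quadriceps, mice with more *Myh7* had more *Myh2*, with Pearson's r of 0.88 (permutation p = 1e-05, the smallest the permutations can give; adjusted p = 0.00016) and Spearman's rho of 0.78 (permutation p = 0.00012). This relation was present in LFD mice (r = 0.92) and in HFD mice (r = 0.83), and r was 0.82 without the 2 mice farthest from the median of *Myh7*. In LFD mice the 4 lowest quadriceps for *Myh7* (mice 142, 156, 147 and 154, with 3.2, 8.3, 15.8 and 45.4) were also the 4 lowest for *Myh2* (5934.5, 7120.1, 9446.1 and 9931.3). In HFD mice the 4 lowest for *Myh7* (mice 143, 151, 158 and 144) were also the 4 lowest for *Myh2*, with 7865.2, 7245.5, 9990.5 and 9762.2. In each diet 3 of these *Myh7* signals were at or under 20, near the background, and their order among themselves is not read.

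In the gastrocnemius the same pair was related with r = 0.73 (permutation p = 0.0007, adjusted p = 0.00373) and rho = 0.69 (permutation p = 0.00169), and with r = 0.68 without the 2 farthest mice. Within the diets r was 0.86 in LFD mice, and in HFD mice it was 0.53 and did not pass (adjusted p = 0.468 by permutation). *Myh2* and *Myh4* ran opposite to each other in the gastrocnemius, with r = -0.78 (permutation p = 7e-05, adjusted p = 0.00056) and rho = -0.71 (permutation p = 0.00148). The value was -0.83 in LFD mice, -0.71 in HFD mice, where it did not pass alone (adjusted p = 0.152 by permutation), and -0.77 without the 2 farthest mice. In the quadriceps the *Myh2* and *Myh4* relation was not past the threshold (r = -0.36, permutation p = 0.133, adjusted p = 0.214; rho = -0.17, adjusted permutation p = 0.564). *Myh7* against *Myh4* in the gastrocnemius missed it (r = -0.55, permutation p = 0.0149, rho = -0.49, permutation p = 0.0366, adjusted p = 0.0596). *Myh1* against *Myh4* passed by rank only over all 20 mice: in the gastrocnemius rho was -0.56 (permutation p = 0.0135, adjusted p = 0.0433) and r -0.51 (permutation p = 0.0257, adjusted p = 0.0703), and in the quadriceps rho was -0.57 (permutation p = 0.0114, adjusted p = 0.0433) and r -0.42 (permutation p = 0.0663, adjusted p = 0.152). Without the 2 mice farthest from the median of *Myh1*, r for this pair was -0.35 in the gastrocnemius, while the quadriceps gave -0.56 with an adjusted permutation p of 0.0435. Whether the relations differed between muscles was not tested. *Myh4* and *Myh1* were each correlated with much of the array. The r with all tested probe sets was taken over all 40 arrays, as deviations from the group means. Its 5th and 95th percentiles were -0.62 and 0.67 for *Myh4*, and -0.688 and 0.655 for *Myh1*. On that measure the r of *Myh4* was -0.43 with *Myh2* and -0.47 with *Myh1*. Whether the relations of *Myh4* or *Myh1* to other isoforms exceed those to other genes was not tested.

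**Figure D4:**
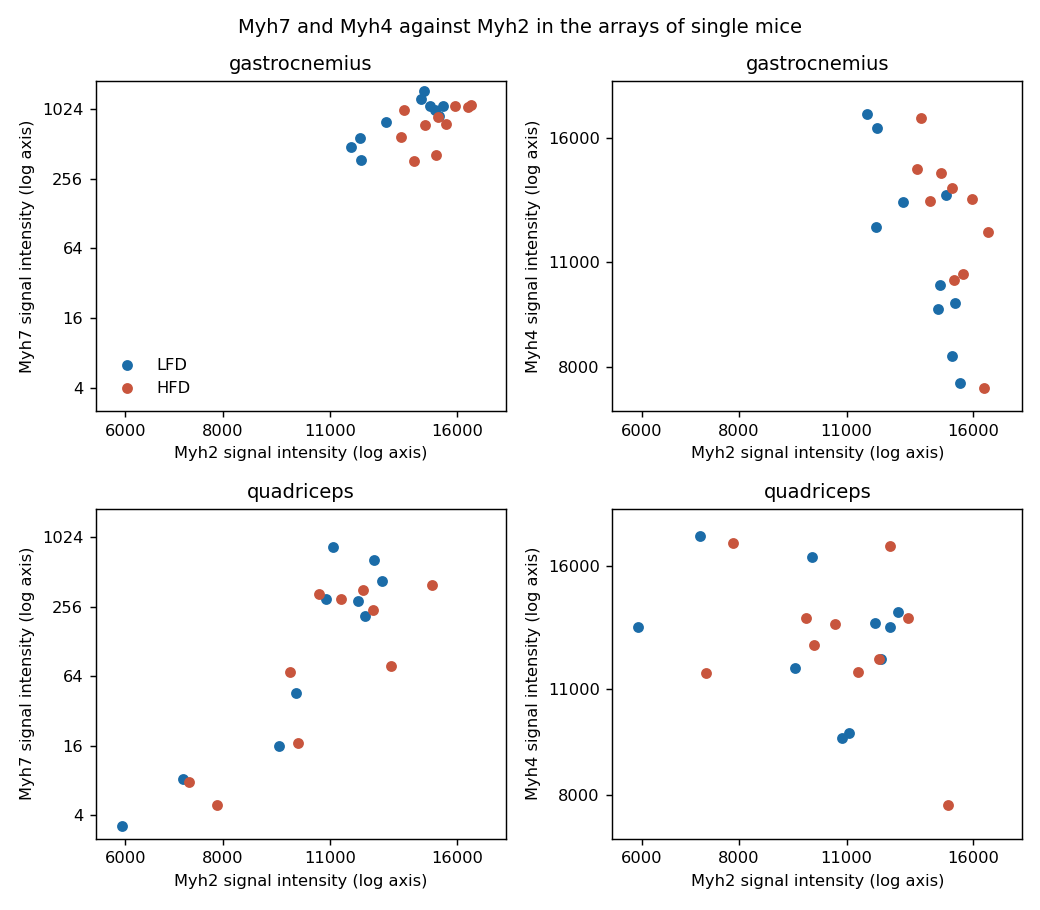
*Myh7* (left) and *Myh4* (right) against *Myh2* in the gastrocnemius (upper) and the quadriceps (lower); each point is the array of 1 mouse, with all axes logarithmic, and blue is LFD and red HFD. *Myh7* rises with *Myh2* in the quadriceps from 3.2 to 842.6, and *Myh4* falls with *Myh2* in the gastrocnemius (r = -0.78).

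The level of an isoform in the gastrocnemius did not show a relation to its level in the quadriceps of the same mouse that passed the test. For *Myh7* r was -0.03 (permutation p = 0.901, rho = 0.02, permutation p = 0.938), and for *Myh2* 0.22 (permutation p = 0.388, rho = 0.17, permutation p = 0.476). For *Myh1* r was 0.31 (permutation p = 0.194, rho = 0.32, permutation p = 0.177) and for *Myh4* 0.02 (permutation p = 0.937, rho = 0.12, permutation p = 0.62). The pooled values join diets that differed in r. In LFD mice r was 0.16 for *Myh7*, 0.43 for *Myh2*, 0.50 for *Myh1* and 0.37 for *Myh4*. In HFD mice it was -0.28, -0.13, 0.06 and -0.35 in the same order. None passed within a diet (adjusted permutation p of 0.322 to 0.749 in LFD and 0.476 to 0.877 in HFD mice). No interval of r was computed, so an r of -0.03 does not show that *Myh7* is unrelated between the muscles. Single mice went either way. Counted from the lowest, LFD mouse 154 ranked 9 in the gastrocnemius (1263.8) but 4 in the quadriceps (45.4). LFD mouse 156 ranked 2 in both (487.5 and 8.3).

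The genes with the most similar pattern were found by the correlation of log2 signal over the 40 arrays, which share normalization and, in pairs, a mouse, so that the values are a description. For *Myh7* they were *Tnnt1* (r = 0.99), *Tnnc1* (0.99), *Tnni1* (0.98), *Atp2a2* (0.98) and *Myl2* (0.97), the slow troponins T, C and I, the slow calcium pump and the slow regulatory light chain. Their correlations of deviations from the group means were 0.96 to 0.98, and 95% of all tested probe sets had an r with *Myh7* under 0.39. For *Myh2* they were *Myoz2* (0.92), *Actn2* (0.91), *Myl2* (0.91), *Myh7* (0.90) and *Atp2a2* (0.90), of which *Myoz2* encodes a calcineurin-binding protein of the Z-disc and *Actn2* an actinin of the same place. The genes nearest to *Myh1* were *Gas1* (0.85), *Txnl1* (0.83), *Klhl9* (0.80), *Nufip2* (0.80) and *Pnrc2* (0.80), and those nearest to *Myh4* were *Pkia* (0.89), *Serinc1* (0.88), *Ecpas* (0.87), *Fyttd1* (0.87) and *Fech* (0.86). For these isoforms 95% of probe sets were under 0.60 and 0.64, a wider spread of correlations than for *Myh7* and *Myh2* (0.39 and 0.45). None of the 5 nearest genes of *Myh1* or *Myh4* was a sarcomere gene of the lists below.

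The slow fiber partners were listed as accompanying type I myosin: troponins, light chains, calcium handling proteins, *Csrp3* and *Ankrd2*. Of 9 tested, 6 were called higher in the gastrocnemius in LFD mice and 8 in HFD mice. Over all tested probe sets, 1.42% and 1.91% were called higher. None of the 9 partners was called lower, and all 9 had a log2 difference above 0 in both diets. Their median log2 difference was 1.98 and 2.35, against -0.01 and -0.02 over all tested probe sets. *Tnni1* rose by 3.05 ± 0.62 (SE, adjusted p = 0.00447, limma) in LFD mice and 3.06 ± 0.56 (adjusted p = 0.0012, limma) in HFD mice. *Myl2* rose by 2.66 ± 0.53 (SE) and 3.14 ± 0.57, *Csrp3*, a muscle LIM protein, by 1.98 ± 0.43 and 2.21 ± 0.34, and *Atp2a2* by 1.27 ± 0.29 and 1.31 ± 0.27. *Myl3*, the slow essential light chain, was not called in either diet, at 1.94 ± 0.62 (SE) and 2.35 ± 0.84. *Myl3*, and *Ankrd2* and *Casq2*, which were called in HFD mice alone, are named after their values were seen.

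Among the fast fiber partners, 2 of 10 tested were called lower in the gastrocnemius in LFD mice and 1 of 10 in HFD mice. Over all tested probe sets, 1.1% and 1.54% were called lower. None of these partners was called higher. Their median log2 difference was -0.02 and -0.03. *Mybph*, myosin binding protein H of the thick filament, fell by 1.67 ± 0.32 (SE, log2, adjusted p = 0.00257, limma) in LFD mice and by 1.3 ± 0.14 (adjusted p = 1.78e-06, limma) in HFD mice. *Mylk2*, the kinase of the regulatory light chain in skeletal muscle, fell by 0.55 ± 0.13 (SE, adjusted p = 0.0101, limma) in LFD mice, and in HFD mice its difference was -0.40 (adjusted p = 0.115, limma). *Tpm1* had an FDR under 0.05 in both diets, at 0.22 and 0.24, with a fold change under the threshold. *Mylpf*, the fast regulatory light chain, was at -0.03 in both diets.

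**Figure D5:**
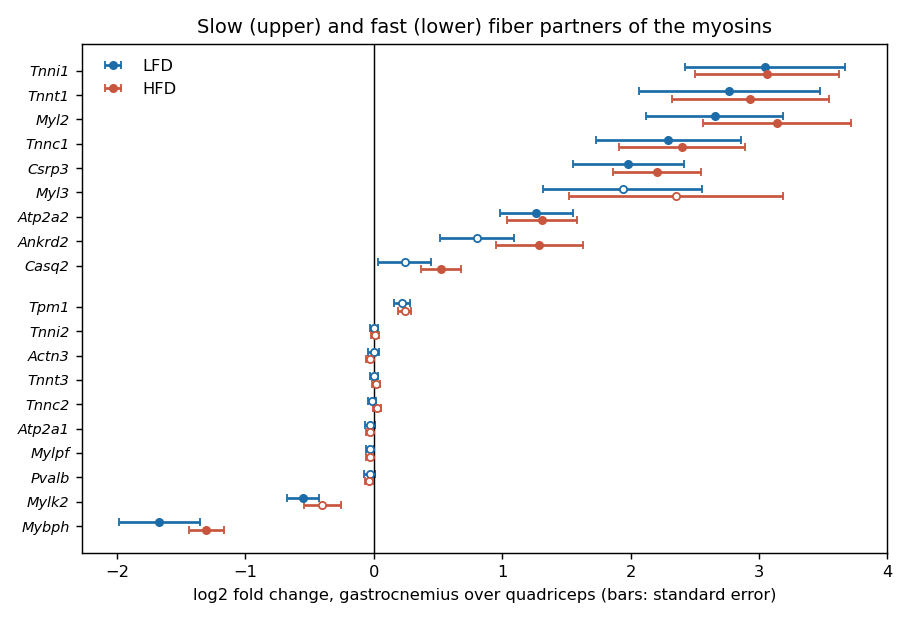
Log2 fold changes of gastrocnemius over quadriceps with their standard errors for the tested slow (upper 9) and fast (lower 10) fiber partners, in LFD mice (blue) and HFD mice (red); filled symbols were called. The slow partners lie right of 0, up to 3.05 in LFD mice for *Tnni1*, and most fast partners lie at 0, with *Mybph* lowest at -1.67 in LFD mice.

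Calls between the muscles were made for 2.52% of all tested probe sets in LFD mice and 3.46% in HFD mice. Among 13 tested genes of myosin folding, assembly and turnover, only *Myom3*, an M-band protein that crosslinks thick filaments, was called in either diet. It was higher in the gastrocnemius by 1.27 ± 0.22 (SE, adjusted p = 0.00118, limma) in LFD mice and 1.90 ± 0.22 (adjusted p = 6.86e-06, limma) in HFD mice. The myosin chaperone *Unc45b* had an adjusted p of 0.000398 (limma) in LFD mice and 0.000492 (limma) in HFD mice at -0.28 and -0.34, a fold change under the threshold. *Trim63*, a ubiquitin ligase that targets myosin, was at -0.13 (adjusted p = 0.0529, limma) and -0.06 (adjusted p = 0.65, limma), and *Myom1* at 0.12 and 0.14. The median of these 13 was -0.002 and 0.07.

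Of 32 tested regulators of myosin heavy chain genes, 3 were called higher in the gastrocnemius in LFD mice and 4 in HFD mice. The share over all tested probe sets was 1.42% and 1.91%. None of these regulators was called lower. *Myoz2* rose by 1.67 ± 0.28 (SE, adjusted p = 0.00074, limma) and 2.07 ± 0.33 (adjusted p = 0.000293, limma), and *Esrrg*, a nuclear receptor of oxidative metabolism, by 0.64 ± 0.14 and 0.80 ± 0.14. The other calls were *Ppargc1a*, a coactivator of oxidative genes, at 0.61 and 0.98, and, in HFD mice, the calcineurin regulator *Rcan1* at 0.60, both named after their values were seen. *Six4* (-0.34, adjusted p = 0.0363, limma) and *Tbx15* (-0.35, adjusted p = 0.0394, limma) had an FDR under 0.05 in LFD mice with fold changes under the threshold. The median of the 32 was -0.03 and 0.01.

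Of the other class II myosin heavy chains, 4 were tested and *Myh10*, a nonmuscle chain, was the only call. Its difference was 0.93 ± 0.27 (SE, adjusted p = 0.0372, limma) in HFD mice and 0.46 ± 0.22 (adjusted p = 0.255, limma) in LFD mice. The share called over all tested probe sets was 3.46% in HFD mice and 2.52% in LFD mice. *Myh11* of smooth muscle was at 0.24 and 0.21, the nonmuscle chain *Myh14* at 0.20 and 0.12, and the nonmuscle chain *Myh9* at 0.04 and -0.14, in LFD and HFD mice, with none of these called.

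Markers of other cell types differed between the muscles as well. The counts below are of called markers. Of all tested probe sets, 1.42% were called higher in the gastrocnemius in LFD mice and 1.91% in HFD mice, and 1.1% and 1.54% lower. Of 6 Schwann cell markers, 2 were tested and both, *Mbp* and *Pmp22*, were higher in the gastrocnemius in both diets, and the summed signal of the list was 608.5 to 1284.1 in the gastrocnemius and 444.2 to 676.3 in the quadriceps of LFD mice, and 554.9 to 1348.5 against 416.6 to 703.3 in HFD mice. Its member *Sox10* had a group mean of at most 6.31. Tendon markers were called higher in 1 of 5 tested in LFD mice and 2 of 5 in HFD mice. Their sums were 2672.7 to 3835.7 against 2256.3 to 2802.7 in LFD mice, and 2712.5 to 3981.6 against 1939.4 to 3332.9 in HFD mice. The tendon marker *Comp* went the other way without a call, with means of 55.53 against 65.12 in LFD mice and 66.41 against 91.63 in HFD mice. Smooth muscle markers were called higher in 1 of 4 in each diet. Adipocyte markers were lower in 3 of 5 in LFD mice and 1 of 5 in HFD mice, with sums of 5392.0 to 6953.4 against 5995.5 to 9747.1 and of 5374.8 to 10516.5 against 6560.8 to 11122.3. Neutrophil markers were called lower in 3 of 6 in HFD mice, with sums of 43.5 to 52.9 over all gastrocnemius arrays and up to 2619.2 in the quadriceps of LFD and 13468 in that of HFD mice. No endothelial marker was called among the 4 of 5 that were tested. For satellite cells and regenerating fibers only 2 of 8 markers were tested, and for erythroid precursors only 1 of 5, with no call. The erythroid marker *Alas2* had the higher means in the quadriceps. They were 30.65 against 14.35 in LFD mice and 36.65 against 15.75 in HFD mice. No spindle marker was over the filter. The part of these cells in the differences of *Myh7* and *Myh2* was not tested.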

How the data were processed

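RNA of both muscles of 20 mice was measured on Affymetrix mouse genome arrays. According to the study, the authors regrouped the probes by Entrez gene, applied quantile normalization and estimated expression with GC-RMA (its version: not given in the sources used here). Deposited were linear signal intensities of 16539 probe sets. Without 64 controls, 16475 remained, of which 15752 were named through RefSeq (GRCm38.p6), 28 through the platform annotation alone and 695 not at all. Arrays have no read depth, and their number limits the precision.

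Deposited intensities were transformed to log2, probe sets with a mean over 20 across the 40 arrays were kept (6479, 39.3%), and limma 3.58.1 (R 4.3.3) was fitted within each diet for the muscles, and to all 4 groups for diet and interaction, with Benjamini-Hochberg adjustment over all probe sets tested. Isoforms under the filter were taken from the same fits over all probe sets. A call needed an FDR under 0.05 and a fold change over 1.3, and an interaction the FDR alone. The procedure was checked on simulated data. Other steps ran in Python 3.11.15 with pandas 2.3.3, scipy 1.17.1 and numpy 2.4.6, and figures were drawn with matplotlib 3.10.9.

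The isoforms and the gene lists were chosen with earlier results of these data known. Named genes were the 7 isoforms, the 5 most similar probe sets of each tested isoform, and up to 4 members of a list with the smallest adjusted p in LFD mice. Both muscles of a mouse carry its number in the labels. The deviations of the muscles from their group means correlated within a mouse with a median of 0.388 in LFD mice (between mice -0.053) and -0.069 in HFD mice (between mice -0.006). The mouse was no block in the tests and was one in the alternatives. Further alternatives were leaving out each mouse, other thresholds and filters, an offset before log2, array weights, a trended variance and repeated normalization; folds as ratios of arithmetic means were added after the data were seen.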

Additional observations from a re-analysis of the deposited data

Results flagged for a closer look

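Of 28 combinations of an isoform and a group of 10 arrays that were checked for a value apart from the rest, 1 stood out, and chance alone sets apart about 1 in 20. In the gastrocnemius of HFD mice, *Myh8* had its highest signal in mouse 143, at 13.7, where the nearest mouse had 10, a gap of 0.544 of the range of the group. The value lies under the filter of 20.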

How the results depend on the processing

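*Myh7* and *Myh2* were higher in the gastrocnemius under every setting run. With a trended, robust variance *Myh7* in LFD mice stayed at 3.10 but was not called (adjusted p = 0.0504, limma), leaving 1 isoform called. With a fold change over 1.5, 1 isoform was called in each diet, since *Myh2* stayed at 0.44 in LFD and 0.49 in HFD mice. With the mouse as a replicate block, fixed or random, no isoform's call changed and no count of genes called moved by over 1.5 times: the adjusted p in LFD mice was 0.0223 and 0.00605 for *Myh7* and 0.0116 and 0.00406 for *Myh2* (limma). With 20 added before log2, the *Myh7* difference was 2.46 and 2.62.

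Leaving out each mouse in turn gave 0 to 2 isoforms called in LFD mice, with *Myh7* at 2.56 to 3.43 and *Myh2* at 0.36 to 0.49, and 2 in HFD mice each time. It turned *Myh4* between the muscles of HFD mice (-0.13 to 0.084). It also turned diet effects in the quadriceps that were not called (*Myh7* -0.82 to 0.17, *Myh2* -0.0016 to 0.15, *Myh1* -0.0454 to 0.0006, *Myh4* -0.0577 to 0.0707) and interactions (*Myh7* -0.39 to 0.66, *Myh2* -0.011 to 0.12). The *Myh4* diet effect in the quadriceps was 0.0010 with normalization repeated and 0.0192 with array weights.

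Of the relations, 5 passed with Spearman's rho, the additional ones being *Myh1* against *Myh4* in each muscle, and 1 passed in HFD mice alone, *Myh7* against *Myh2* in the quadriceps. Relations between the muscles turned sign without passing: *Myh7* 0.0195 (rho), 0.16 (LFD) and 0.17 (without 2 mice), *Myh2* -0.13 (HFD) and *Myh4* -0.35 (HFD).

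The number of genes called moved with the thresholds. With the FDR alone it was 338 in LFD mice, 429 in HFD mice, 44 for diet in the gastrocnemius and 12 for diet in the quadriceps, while with a fold over 1.5 it was 85, 108, 5 and 1. With array weights 46 were called for diet in the gastrocnemius and 2 for diet in the quadriceps. Leaving out a mouse gave 1 to 10 genes for diet in the quadriceps, against 4 (without 141, 142, 143, 144, 145, 151, 152 or 156 by over 1.5 times), and 9 to 19 in the gastrocnemius, against 14 (without 154). The causes were not tested. Signals under about 20 lie near the array background, which limits the size of a fold change for *Myh7* in the quadriceps.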
